A study of Mus musculus with 54 samples.

Results

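The mitochondrial ribosomal protein genes are the nuclear genes named Mrpl or Mrps with a number. Their members were chosen by name alone, as the protein-coding rows of the count table whose GRCm38 symbol begins with Mrpl or Mrps and a digit, and 78 of the 47069 genes of the table met the rule. RNA was sequenced from 3 brain regions, cortex, striatum and cerebellum, in 10 Mbd5+/GT mice and 8 WT littermates at 8 weeks of age, which gave 54 libraries with no pooling of animals. Both groups were on a C57BL/6 background and received no treatment. The Mbd5+/GT mice carried 1 gene-trap allele of Mbd5, an insertion in an intron that leaves a hypomorphic allele, so the model is a partial loss through the germline, not a deletion in one cell type, although the genotype tag of the labels calls it a heterozygous deletion. There were 3 litters. Litter 1 (females) contributed 3 mice of each genotype, litter 2 (males) 4 Mbd5+/GT mice with 1 WT mouse, and litter 3 the remaining 3 Mbd5+/GT and 4 WT mice.

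Mitochondria make their own protein with a ribosome that is separate from the cytosolic one. Its RNAs are transcribed from mitochondrial DNA, whereas every protein of its large and small subunit is encoded in the nucleus, made in the cytosol and imported. The mitoribosome translates only the core subunits of the respiratory chain and of ATP synthase that mitochondrial DNA encodes, on which neurons rely for ATP. Of the 78 members, 51 code for proteins of the large subunit and 26 for proteins of the small subunit. By their standard names 46 have a bacterial counterpart and 31 are specific to mitochondria. The name misleads for 3 of them. Mrps30 and Mrps18a code for proteins that sit in the large subunit, and Mrps36 codes for a component of the 2-oxoglutarate dehydrogenase complex, not of the ribosome.

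Gene counts ranged from 25295973 to 49027399 over the libraries, of which the members took 0.175% to 0.350%. Mbd5 itself was lower in Mbd5+/GT than in WT mice in all 3 regions, by log2 differences of -0.49 (cortex), -0.51 (striatum) and -0.34 (cerebellum) (edgeR adjusted p = 0.00012, 9.4e-05 and 0.0091). The summed level of the markers of a library's own region lay more than 3-fold below the region's median in 4 libraries. These were the striatum libraries of 2 WT mice and the cerebellum libraries of 1 Mbd5+/GT mouse and 1 WT mouse. In 8 libraries the summed markers of another region were above those of the library's own, and the highest were in each case those of cortex or striatum. These were the cortex libraries of 2 WT mice and the striatum libraries of 4 Mbd5+/GT mice and of the same 2 WT mice that were low in striatal markers. Some results are also given without the 4 or the 8 libraries. In bulk tissue, fewer cells of a type and less RNA per cell cannot be told apart.

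Of the 78 members, 77 passed the filter of more than 4 counts in at least 8 libraries in each region. The exception was Mrpl53, which had 0 or 1 count in every library, although its protein is a constituent of the large subunit. Its exons overlap Gm42688 on the same strand and Ccdc142os on the other. The gene counter of STAR, which the authors used, leaves out reads that overlap more than 1 gene. Of the 78 members, 8 overlapped another gene on the same strand, among them Mrps6 and Mrps24 with medians of 597 and 593.5 counts. The part of the overlaps in the missing counts of Mrpl53 was not tested.

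To compare members with each other, levels in CPM (counts scaled to a common library size) were divided by the length of the merged exons of each gene (CPM per kilobase). In WT mice the mean of the 3 regions spanned 1.70 to 47.6 CPM per kilobase over the 77 members, with a median of 11.8. The highest levels belonged to Mrpl41, Mrps21 and Mrpl12. Mrpl41, a mitochondria-specific protein of the large subunit, was at 40.2 ± 5.40 CPM per kilobase in cortex, at 56.9 ± 10.0 in striatum and at 45.6 ± 7.38 in cerebellum (SD, n = 8). Mrps21, the counterpart of bacterial S21, was at 31.8 ± 5.90, 51.6 ± 9.70 and 36.8 ± 10.3 CPM per kilobase in the same order. Mrpl12, the counterpart of the bacterial stalk protein L7/L12, followed at 30.5 ± 5.55, 44.8 ± 7.97 and 31.3 ± 7.66 CPM per kilobase. Within each region the mean ± SD of neighbours in this order overlapped. At the other end, Mrpl33 had a mean level of 1.70 and Mrpl23 of 2.20 CPM per kilobase. Both have long merged exons, 7326 and 4883 bases, against 478 and 692 bases for the longest transcript tagged as principal, and on that length they rose to 26.0 and 15.5 CPM per kilobase. Mrpl42 headed the order on the principal length, at 65.5, ahead of Mrpl20 (62.4), Mrps21 (60.7) and Mrpl41 (54.4). Members of the large subunit had a median of 13.2 and those of the small subunit of 10.3 CPM per kilobase, with ranges that overlapped over most of their length (1.70 to 47.6 and 2.80 to 40.1).

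The first comparison asked how the members differ between the regions of WT mice. Most were higher in striatum than in cortex. In the fit of all libraries (edgeR's quasi-likelihood test, adjusted over 20477 genes), 58 of 77 members were lower in cortex than in striatum and 1 was higher, where 22.7% of all genes tested were lower and 24.4% higher. The median log2 difference of the members, cortex minus striatum, was -0.40, against 0.00077 over all genes. Cerebellum was above cortex for 29 members and below it for 2 (all genes 28.2% and 27.6%), with a median of 0.17 against 0.020 over all genes. Cerebellum was below striatum for 30 members and above it for 10 (all genes 32.6% and 32.9%), with a median of -0.18 against -0.020. By mean level, 53 of 77 members were highest in striatum, 23 in cerebellum and 1 in cortex, and cortex was the lowest region for 63. The tissue of one region was collected on the same day in all mice. Whether the regions had different days is not given in the sources used here, and a part of the day in the differences between regions was not tested.

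Markers of other regions and cells moved with this comparison. Over the 8 WT libraries of each region, the cortical markers Slc17a7, Tbr1 and Neurod6 summed to 690 over a median of 960 to 1338 CPM in cortex and to 254 over 639 to 951 CPM in striatum. The striatal markers Drd1, Drd2, Adora2a and Rgs9 summed to 31.2 over 270 to 479 CPM in cortex and to 52.6 over 853 to 1874 CPM in striatum. The oligodendrocyte markers Mbp, Mog, Mag and Mobp summed to 1818 over 3216 to 4093 CPM in cortex and to 4079 over 8391 to 11957 CPM in striatum. Both regions therefore held the markers of the other, and the oligodendrocyte sums overlapped only between 4079 and 4093 CPM. The part of these cells in the members' difference was not tested. Without the 8 libraries that were higher in the markers of another region, an alternative chosen after the data were seen, 41 members were lower in cortex than in striatum and 1 was higher (all genes 17.3% and 20.4%), with a median of -0.34.

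In both subunits most members were lower in cortex than in striatum, 42 of 50 in the large and 16 of 26 in the small subunit, with medians of -0.41 and -0.38. Whether the subunits differ was not tested. The corresponding counts were 35 of 46 for members with a bacterial counterpart and 23 of 30 for those specific to mitochondria. Of the compared families, cytosolic ribosomal protein genes were lower in cortex than in striatum in 80 of 83 cases and nuclear genes of oxidative phosphorylation in 71 of 84. The 13 protein genes of mitochondrial DNA went the other way, with 7 higher in cortex and 0 lower.

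Mrpl52 had the greatest difference between cortex and striatum among the members. It codes for a mitochondria-specific protein of the large subunit. In WT striatum its level ran from 15.7 over a median of 22.3 to 33.5 CPM per kilobase, and in WT cortex from 8.50 over 12.0 to 15.6. The lowest striatum library was thus above the highest cortex library, and the share of all genes separated in this way is not given here. The log2 difference, cortex minus striatum, was -0.95 ± 0.18 (SE, edgeR adjusted p = 2.9e-05), and cortex was lower in 8 of 8 mice. Against cerebellum, where it ran from 6.63 over 11.3 to 15.5, the difference was -1.10 ± 0.18 (cerebellum minus striatum, adjusted p = 3.8e-07). Mrpl54, another mitochondria-specific protein of the large subunit, ran from 19.7 over 28.5 to 34.1 CPM per kilobase in striatum and from 11.7 over 16.0 to 22.0 in cortex, ranges that overlapped. Its difference was -0.71 ± 0.16 (adjusted p = 0.00028), with cortex lower in 7 of 8 mice. Mrpl23, the counterpart of bacterial L23 at the exit tunnel, differed by -0.66 ± 0.13 (adjusted p = 6.4e-05) and in 8 of 8 mice. Mrps6, the counterpart of bacterial S6, differed by -0.67 ± 0.13 (adjusted p = 7.4e-05) and in 7 of 8 mice, but its exons overlap Slc5a3 and Gm49711 on the same strand. Mrpl27 was lower in cerebellum than in striatum by -0.60 ± 0.13 (adjusted p = 7.3e-05), as was Mrpl33 by -0.71 ± 0.095 (adjusted p = 5.6e-09), each in 8 of 8 mice. Mrpl33 shares exon sequence with Gm43809 on the same strand.

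A smaller set was highest in cerebellum. Cerebellum was above both other regions, by an adjusted p under 0.05 in each contrast, for 9 members, Mrpl1, Mrpl35, Mrpl39, Mrpl45, Mrpl47, Mrps5, Mrps10, Mrps22 and Mrps35. Over all genes, 28.2% were higher in cerebellum than in cortex and 32.9% higher than in striatum. The share of all genes above both, or without overlap between libraries, is not given here. For Mrpl1, a protein of the mobile L1 stalk, the WT cerebellum libraries ran from 5.42 over 5.60 to 6.27 CPM per kilobase, the striatum libraries from 3.14 over 3.76 to 4.59 and the cortex libraries from 3.39 over 3.95 to 4.26. No cerebellum library overlapped the other regions. The differences were 0.58 ± 0.072 from striatum and 0.51 ± 0.071 from cortex (SE, adjusted p = 8.0e-10 and 2.8e-08). Mrps5, the counterpart of the bacterial decoding-fidelity protein S5, ran from 8.56 over 9.26 to 10.1 in cerebellum, from 5.66 over 6.19 to 7.50 in striatum and from 6.35 over 6.87 to 7.36 in cortex. It too had no overlap between cerebellum and the rest, and it was 0.54 ± 0.055 above striatum (adjusted p = 3.5e-12). Mrps5 was also the member higher in cortex than in striatum, by 0.17 ± 0.055 (adjusted p = 0.011), a call that was lost under 4 of 8 alternatives, among them Mbd5+/GT mice in place of WT mice (0.10, adjusted p = 0.11) and the fit without litter 2 (0.12, adjusted p = 0.11). Mrps35 and Mrpl35 were higher in cerebellum than in striatum by 0.45 ± 0.077 and 0.38 ± 0.073 (adjusted p = 1.8e-06 and 1.2e-05), in 8 of 8 mice each. Mrps17, the counterpart of bacterial S17, was the opposite case and lower in cerebellum than in cortex, by -0.30 ± 0.060 (adjusted p = 2.9e-05) and in 8 of 8 mice. Mrpl33 was the other, at -0.24 ± 0.095 (adjusted p = 0.026), a call lost under 5 of 8 alternatives.

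The differences went with gene length. All 19 members with under 1500 exonic bases had a difference of cortex minus striatum below 0, and 18 of them were called, with a median of -0.55. For the 36 members of 1500 to 4000 bases the median was -0.40 with 29 called, and for the 22 of over 4000 bases it was -0.14 with 11 called lower and 1 higher. Other protein-coding genes showed medians of -0.48, -0.20 and 0.18 in the same length classes, with 577 of 1210, 2189 of 6093 and 1253 of 8650 called lower and 49, 784 and 3350 called higher. Cerebellum minus striatum ran alike, from -0.33 over -0.16 to 0.011 in the members and from -0.43 over -0.15 to 0.17 in other protein-coding genes. Cerebellum minus cortex had member medians of 0.13, 0.17 and 0.19, with 3 of 19, 15 of 36 and 11 of 22 members called higher and 0, 0 and 2 called lower. Other protein-coding genes had medians of 0.034, 0.046 and 0.029 there, with 305 of 1210, 1936 of 6093 and 2711 of 8650 called higher. With the mean level of other short genes as a term in the fit, an alternative chosen after the data were seen, cortex was lower than striatum for 0 members and higher for 4 (all genes 5.24% and 9.22%). Cerebellum was then higher than striatum for 51 members and lower for 1 (all genes 27.7% and 24.3%), and higher than cortex for 54 and lower for 1 (all genes 30.3% and 30%). The member medians of these contrasts were 0.010, 0.29 and 0.27, against 0.016, 0.015 and 0.0091 over all genes. The order of striatum against the other regions depended on that term, and the median of cerebellum minus cortex stayed above 0.

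**Figure D1:**
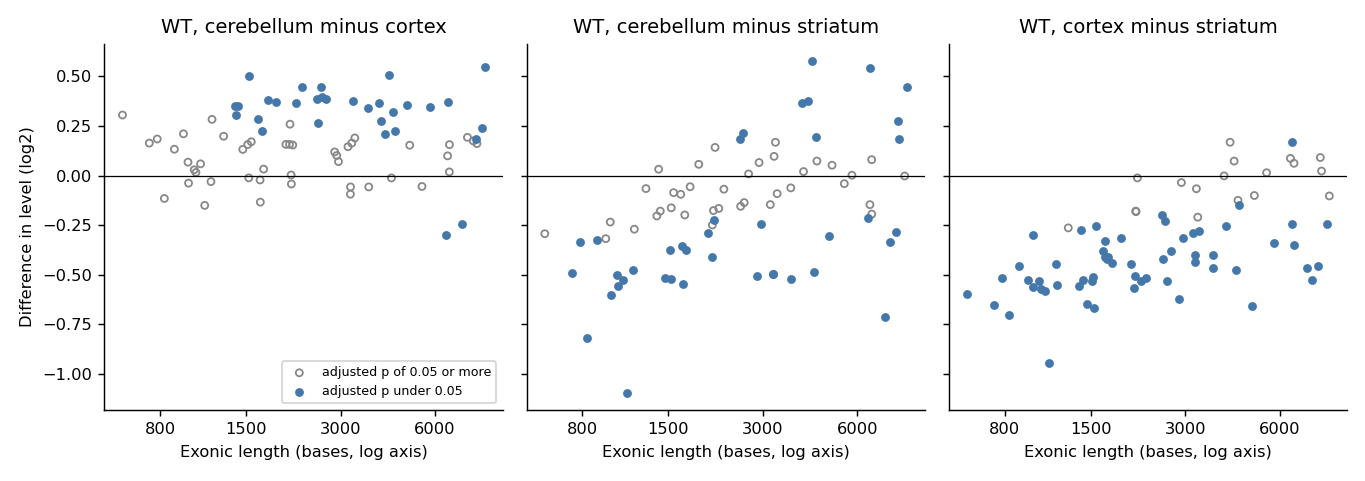
Fitted log2 difference between 2 regions of WT mice (vertical axis) against the merged exonic length in bases (horizontal axis, logarithmic) for the 77 members tested; filled points have an adjusted p under 0.05 and open points do not. Cortex minus striatum lies below 0 for 69 members and is largest below 0 for short genes, while cerebellum minus cortex lies above 0 for 62 members, short and long.

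The Mbd5+/GT mice gave the same order between cerebellum and cortex, with 42 members higher and 1 lower (all genes 31% and 28.9%) and a median of 0.22. Cortex was lower than striatum for 38 members and higher for 0 (all genes 17.1% and 18.3%), with a median of -0.25. Between cerebellum and striatum 16 were higher and 13 lower (all genes 33.6% and 31.4%), around a median of 0.0020. By mean level 37 members were highest in striatum, 39 in cerebellum and 1 in cortex in the Mbd5+/GT mice, and 61 of 77 were highest in the same region in both genotypes. With the mouse as a replicate block, since each mouse gave all 3 regions, 2 members rather than 1 were higher in cortex than in striatum in WT mice, and no other regional count moved by over 1.5 times.

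Mrps18a, Mrps18b and Mrps18c are 3 nuclear genes related to bacterial S18. Mrps18c takes the place of S18 in the small subunit, whereas Mrps18b lies elsewhere in the small subunit and Mrps18a in the large one, and those were counted as specific to mitochondria. Mrps18c ran from 8.27 over 13.2 to 15.4 CPM per kilobase in WT striatum and from 5.65 over 8.25 to 10.2 in WT cortex, a difference of -0.58 ± 0.15 (cortex minus striatum, SE, adjusted p = 0.0014). Mrps18a ran from 10.9 over 13.6 to 17.6 in striatum and from 8.17 over 9.29 to 12.4 in cortex, a difference of -0.47 ± 0.12 (adjusted p = 0.0015). Mrps18b had the flattest profile, from 5.56 over 6.34 to 7.32 in striatum and from 5.04 over 5.61 to 5.98 in cortex, and its difference of -0.18 ± 0.085 missed the threshold (adjusted p = 0.075), though it passed with DESeq2 size factors (-0.20, adjusted p = 0.048). Cerebellum differed from striatum by -0.53 ± 0.15, -0.52 ± 0.12 and -0.18 ± 0.085 for Mrps18c, Mrps18a and Mrps18b (adjusted p = 0.0021, 0.00018 and 0.062), and the last passed with DESeq2 size factors (adjusted p = 0.029) and without litter 2 (adjusted p = 0.021). Whether the 3 genes differ from each other in these contrasts was not tested.

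The level of the members varied between libraries of one region more than between the genotypes. The mean log2 CPM over the 77 members ran from 4.39 over 4.53 to 4.84 in WT cortex and from 4.42 over 4.63 to 4.76 in Mbd5+/GT cortex. In striatum it ran from 4.73 over 5.00 to 5.27 in WT and from 4.49 over 4.85 to 5.10 in Mbd5+/GT mice. In cerebellum the ranges were 4.51 over 4.77 to 5.14 and 4.41 over 4.83 to 5.17. The genotypes overlapped in every region. The highest striatum library was that of a WT mouse and one of those low in striatal markers.

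**Figure D2:**
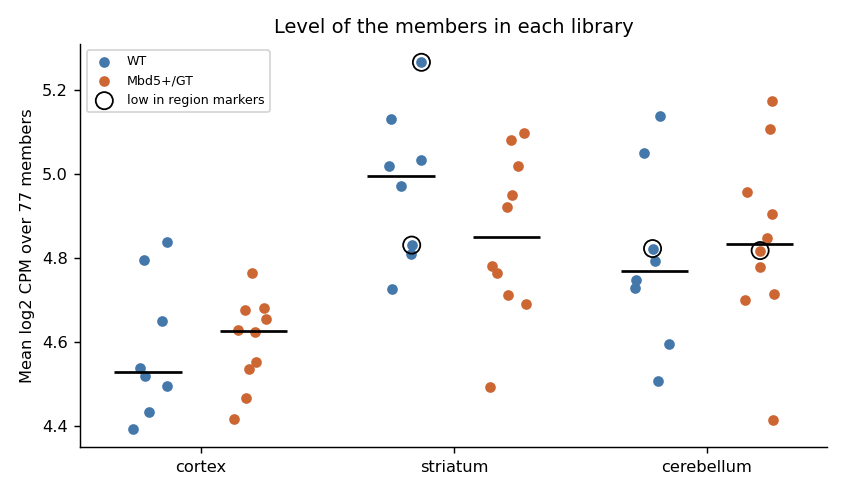
Mean log2 CPM over the 77 members (vertical axis) in each of the 54 libraries, by region and genotype; bars mark medians and circles mark the 4 libraries low in the markers of their own region. The genotypes overlap in each region, and the cortex medians are the lowest, at 4.53 in WT and 4.63 in Mbd5+/GT mice.

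Members rose and fell together from library to library. Over the 2926 pairs of members, the median Pearson correlation of their deviations from the group means was 0.608 (cortex), 0.729 (striatum) or 0.803 (cerebellum), each over 18 libraries, and 91.5%, 97.3% and 93.2% of the pairs were positive. The median over pairs of all genes tested was -0.001, 0 and 0.002. These correlations are across libraries that share depth, dissection and RNA handling, and they describe those libraries. Pairs of cytosolic ribosomal protein genes had medians of 0.896, 0.888 and 0.959, and pairs of nuclear oxidative phosphorylation genes 0.758, 0.795 and 0.908. The member that followed the others least in each region was Mrps5, with a median correlation to the other members of -0.059 (cortex), -0.071 (striatum) and -0.32 (cerebellum). The next lowest was Mrpl37 in cortex (-0.056), Mrpl1 in striatum (0.058) and Mrps10 in cerebellum (-0.19). In the regions where they were not next, Mrpl37 had 0.37 (striatum) and 0.30 (cerebellum), Mrpl1 had 0.31 (cortex) and -0.12 (cerebellum), and Mrps10 had 0.20 (cortex) and 0.42 (striatum).

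The libraries with high member levels were mostly those with a high mean level of other short protein-coding genes. That set left out only the members, and its pairs had median correlations of 0.215 (cortex), 0.210 (striatum) and 0.350 (cerebellum). Other protein-coding genes of under 1500 exonic bases had a mean log2 CPM of 1.49 in the striatum library with the lowest member level, 4.49, and of 2.03 in that with the highest, 5.27. Genes of over 6000 bases went down at the same time, from 4.99 to 4.60. Among the 6 striatum libraries with the highest member level, 6 were among the 6 highest for short genes, 6 for oxidative phosphorylation genes and 5 for cytosolic ribosomal protein genes, and 5 were among the 6 lowest for long genes. In cerebellum the corresponding counts were 4, 5, 5 and 6, and in cortex 5, 6, 3 and 6. The part of these measures in the member level was not tested.

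**Figure D3:**
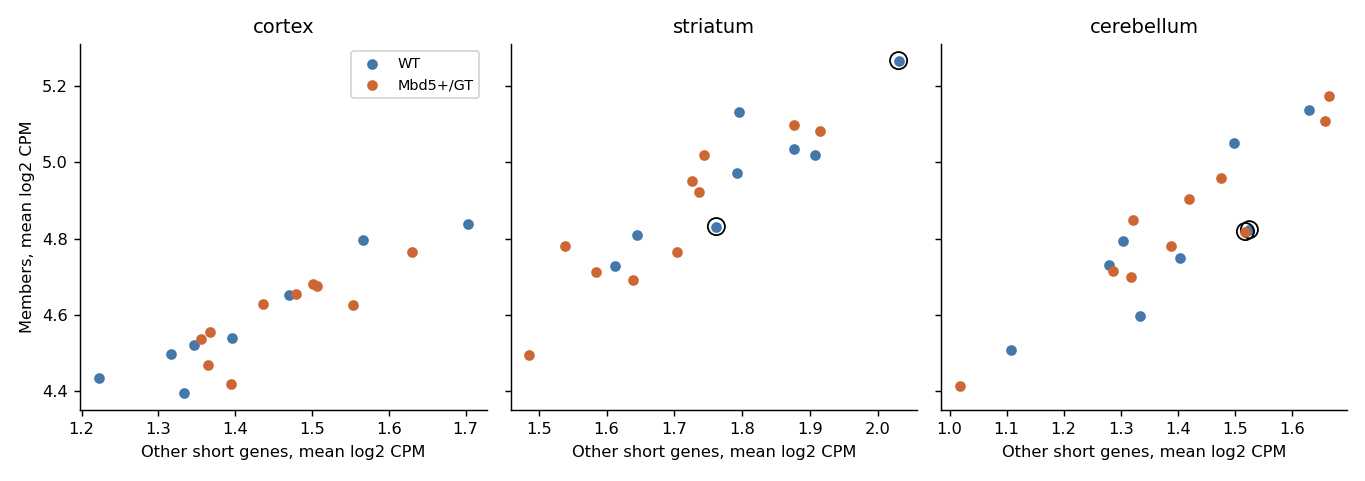
Mean log2 CPM of the 77 members (vertical axis) against that of other protein-coding genes of under 1500 exonic bases (horizontal axis), 1 point per library and 1 panel per region; circles mark libraries low in the markers of their region. The points rise together in every panel, from 1.49 and 4.49 to 2.03 and 5.27 in striatum, with both genotypes along the same course.

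The members share features that their names do not use. Windows of 250 bases before to 50 after the RefSeq start (GRCm38.p6) were at hand for 69 of the 78. They were searched on both strands for 3 motifs known from promoters of nuclear genes for mitochondria, GCGCATGCG of NRF1, CCGGAAG of ETS factors such as GABP and AANATGGCG of YY1. No site of one motif overlapped a site of another in the members, whereas GCGCATGCG can match the same stretch on both strands, and each gene was counted once per motif. A match is a description of the letters and not a bound site. CCGGAAG was found in 26 of 69 members (37.7%), against 13.4% of 16353 protein-coding genes with a window, AANATGGCG in 11 (15.9% against 3.85%) and GCGCATGCG in 7 (10.1% against 2.75%). At least 1 of the 3 was present in 37 members (53.6% against 18.4%). Of 65 cytosolic ribosomal protein genes with a window, 40% held CCGGAAG, 10.8% AANATGGCG, 4.62% GCGCATGCG and 53.8% any of them. Of 66 oxidative phosphorylation genes the shares were 24.2%, 15.2%, 12.1% and 43.9%. Of the members, 18 of 78 (23.1%) had a protein-coding gene that starts on the other strand within 1000 bases upstream, against 6.74% of other protein-coding genes. Mrps18b is such a case with Ppp1r10 and Mrps18c with Helq.

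The sites of the tested members that are named for a comparison or for their level are printed below in the direction of the gene, 30 bases each with the motif in capitals. CTTCCGG, CGCATGCGC and CGCCATCTT are the same motifs read on the other strand. The first group holds the S18 relatives, all of which had an ETS site:
Mrps18a, ETS, chr17:46110967-46110996, + strand: acacccctgctCCGGAAGcggaagtgcaca
Mrps18a, YY1, chr17:46111005-46111034, + strand: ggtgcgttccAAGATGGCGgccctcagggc
Mrps18b, NRF1, chr17:35916645-35916674, - strand: aacggcccgaCGCATGCGCactgggagcac
Mrps18b, ETS, chr17:35916391-35916420, - strand: tgtcccgagcatgcgcagtcgctCTTCCGG
Mrps18c, ETS, chr5:100798592-100798621, + strand: gggtcacgtgaCTTCCGGcccgggaagcgc
The second group holds members named for the regions, the genotype, the interactions or, as Mrps21, the level:
Mrpl52, ETS, chr14:54426851-54426880, + strand: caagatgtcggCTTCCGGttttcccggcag
Mrpl27, ETS, chr11:94653725-94653754, + strand: gtccgcaagacCCGGAAGtagatctatccc
Mrpl27, YY1, chr11:94653789-94653818, + strand: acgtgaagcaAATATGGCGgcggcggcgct
Mrpl35, YY1, chr6:71823742-71823771, - strand: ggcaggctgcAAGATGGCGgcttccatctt
Mrps11, YY1, chr7:78783013-78783042, + strand: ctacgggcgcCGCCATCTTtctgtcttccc
Mrps24, YY1, chr11:5707652-5707681, - strand: cgggtcgcgccggcccAAGATGGCGtggtc
Mrps21, ETS, chr3:95871478-95871507, - strand: cgtagcttccgCTTCCGGtccgcagagacc
Mrpl33, ETS, chr5:31613937-31613966, + strand: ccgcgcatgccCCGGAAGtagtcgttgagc
Mrpl21, ETS, chr19:3283038-3283067, + strand: cgctgcttccgCTTCCGGttgggactgtgg
The windows of 10 other named members, Mrpl1, Mrpl12, Mrpl20, Mrpl23, Mrpl24, Mrpl41, Mrps5, Mrps6, Mrps7 and Mrps17, held none of the 3 motifs in these letters. Mrpl19, Mrpl54 and Mrps35 had no window in the table. Mrpl52 held a further ETS site, and Mrps11 and Mrpl46 overlap at their starts on opposite strands.

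The main comparison of the study, Mbd5+/GT against WT mice within a region, was fitted with edgeR's quasi-likelihood test and surrogate variables. It gave an adjusted p under 0.05 for 0 of 77 members in each region, where the share called over all genes was 0.0107% (cortex), 0.00539% (striatum) and 0.00551% (cerebellum). The lowest adjusted p of a member was 0.69, 0.63 and 1.00. With an unadjusted p under 0.05, the threshold of the nDEGs (nominally differentially expressed genes), 0 members were higher and 0 lower in cortex (all genes 3.97% and 4.51%), and 0 higher and 0 lower in cerebellum (all genes 0.964% and 1.78%). In striatum 10 members were lower (all genes 3.2%) and 1 was higher (all genes 4.24%). The count of 10 moved by over 1.5 times under several alternatives. It was 5 without surrogate variables (all genes 1.73%), 6 with 1 surrogate variable fewer (2.33%), 3 with no filter on low counts (3.35%) and 19 with litter and sex as covariates (3.63%). The DESeq2 Wald test with the same surrogate variables also gave 0 members with an adjusted p under 0.05 in each region.

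In cortex the median log2 difference of the members, Mbd5+/GT minus WT, was 0.013, against -0.0042 over all genes, with 45 members above 0 and 32 below. The number below 0 was 52 without the cortex libraries higher in the markers of another region, and 52 without litter 2. It was 56 with the level of short genes, 60 with litter and sex, and 31 to 43 under the other fits. In cerebellum the median was -0.0064, against -0.0035 over all genes, with 33 above and 44 below. There 28 were below 0 without the libraries low in cerebellar markers and 27 with the level of short genes. The number was 10 without surrogate variables or with 1 fewer, and 48 to 63 under the other fits. In striatum the median was -0.050, against -0.0099 over all genes, with 12 above and 65 below. There 37 were below 0 with the level of short genes, 54 with no filter, and 59 to 74 under the other fits. Members of the large and small subunit had like medians in striatum, -0.050 and -0.049. The 46 members with a bacterial counterpart had a median of -0.073 and 9 of the 10 lower calls, and the 30 specific to mitochondria a median of -0.044. Whether these groups differ was not tested. Nuclear oxidative phosphorylation genes and cytosolic ribosomal protein genes of the striatum had medians of -0.11 and -0.085, with 25 of 84 and 13 of 83 lower at an unadjusted p under 0.05 and 0 higher. The 13 protein genes of mitochondrial DNA had a median of 0.30, with 4 higher. Other protein-coding genes of under 1500 exonic bases had a median of -0.071, with 101 of 1043 lower. The share of reads from the spike-ins in striatum ran from 0.129% over 0.517% to 0.728% in WT and from 0.0920% over 0.194% to 0.713% in Mbd5+/GT mice. The summed choroid plexus markers Ttr, Folr1, Kcnj13, Clic6 and Kl ran from 21.4 over 80.7 to 6156 CPM in WT and from 13.3 over 132 to 4094 CPM in Mbd5+/GT mice. The part of either in the striatal difference was not tested.

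**Figure D4:**
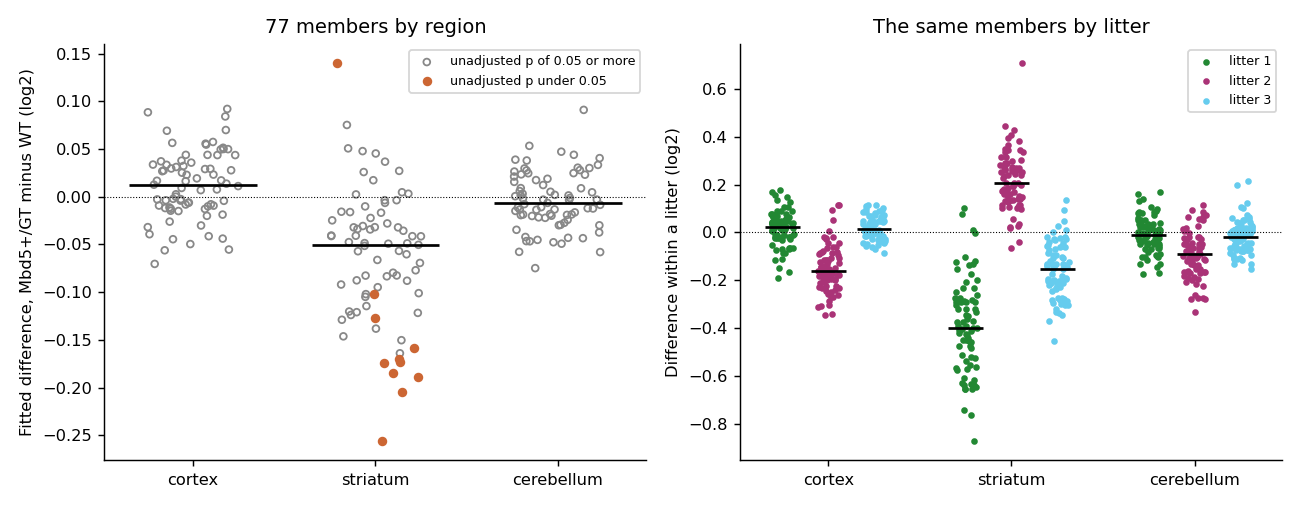
Left, fitted log2 difference of the 77 members between Mbd5+/GT and WT mice (vertical axis) in each region; filled points have an unadjusted p under 0.05 and bars mark medians, which are 0.013 (cortex), -0.050 (striatum) and -0.0064 (cerebellum). Right, the difference of mean log2 CPM within each litter, with no covariate, which in striatum has medians of -0.40, 0.21 and -0.15 in litters 1, 2 and 3.

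The striatal members with the lowest p were Mrpl12, Mrps11, Mrps24 and Mrpl20. Mrpl12 ran from 50.7 over a median of 70.4 to 86.0 CPM in the WT and from 32.8 over 54.3 to 79.8 CPM in the Mbd5+/GT striatum. The groups overlapped, and 8 of 10 Mbd5+/GT libraries were below the WT mean. The fitted log2 difference was -0.26 ± 0.081 (SE, edgeR unadjusted p = 0.0055, adjusted p = 0.63), and the two-sided exact permutation test, which ran through each of 43758 splits, gave p = 0.068. Mrps11, the counterpart of bacterial S11 in the platform of the small subunit, ran from 22.2 over 26.2 to 32.8 CPM in WT and from 17.1 over 22.9 to 26.8 CPM in Mbd5+/GT striatum. All 10 Mbd5+/GT libraries were below the WT mean, though the ranges overlapped. Its difference was -0.19 ± 0.060 (unadjusted p = 0.0056, adjusted p = 0.63), with an exact p of 0.022 over all splits and of 0.036 over the 3500 that keep the litters. Its exons overlap those of Mrpl46 on the other strand, also among the 10 lower members, and the sources used here do not say whether counting used strand, so the values of the pair are uncertain. The members named here were picked by their low p in these same libraries. Their exact p is unadjusted and no separate support. The p within litters was computed for every named member but is given for Mrps11 only. It therefore does not set Mrps11 apart from the others.

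Mrps24, the counterpart of bacterial S3 at the mRNA entry, ran from 20.0 over 27.0 to 33.4 CPM in WT and from 15.1 over 22.2 to 29.4 CPM in Mbd5+/GT striatum, a difference of -0.17 ± 0.059 (edgeR unadjusted p = 0.0088, adjusted p = 0.63). Its exons overlap Urgcp on the same strand. Mrpl20, a counterpart of the bacterial assembly protein L20, ran from 44.3 over 59.8 to 65.5 CPM and from 32.1 over 48.3 to 63.3 CPM, a difference of -0.21 ± 0.070 (unadjusted p = 0.0095, adjusted p = 0.63). For both, 8 of 10 Mbd5+/GT libraries were below the WT mean, the groups overlapped, and the exact permutation p over all splits was 0.076 and 0.078. Mrps21, Mrpl28, Mrps7, Mrps16, Mrpl46 and Mrpl24 were the other lower members, with differences of -0.19 to -0.10. Mrpl1 was the one higher member. It ran from 13.4 over 16.2 to 20.0 CPM in WT and from 15.4 over 18.1 to 20.2 CPM in Mbd5+/GT striatum, and its difference was 0.14 ± 0.064 (edgeR unadjusted p = 0.041, adjusted p = 0.65, exact permutation p = 0.12). Its call was lost with litter and sex as covariates, with no surrogate variables, with the level of short genes, without litter 2, without the libraries labelled as repeats and without those low in striatal markers or higher in cortical ones. In cortex and cerebellum these 5 members differed by -0.046 to 0.057 (adjusted p of 0.79 or more).

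**Figure D5:**
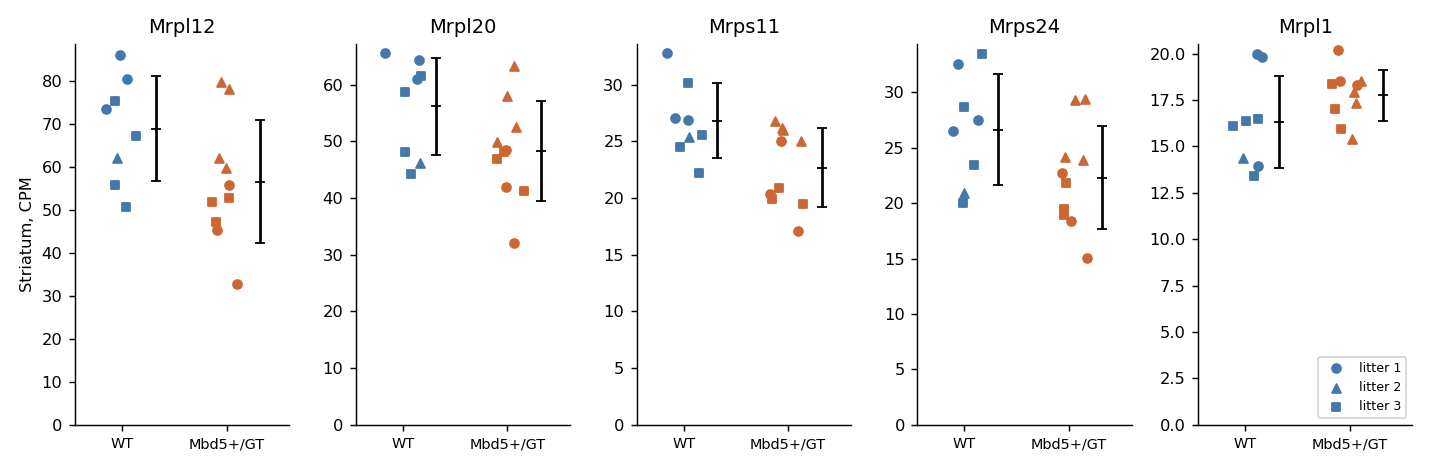
CPM in striatum (vertical axes, from 0) of the 4 members with the lowest p among those lower in Mbd5+/GT mice and of Mrpl1, 1 point per mouse, with the litter by symbol and the mean ± SD beside each group (8 WT and 10 Mbd5+/GT mice). The groups overlap in every panel, and the Mbd5+/GT median lies below the WT median in each panel but that of Mrpl1 (18.1 against 16.2 CPM).

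The striatal difference was not the same in the litters. Of the 77 members, 74 were lower in the Mbd5+/GT mice of litter 1 and 71 in those of litter 3, with median log2 differences of -0.40 and -0.15. In litter 2, which had 1 WT mouse, 75 were higher, with a median of 0.21. Mrpl12 differed by -0.87, 0.16 and -0.28 in litters 1, 2 and 3 and Mrps24 by -0.64, 0.35 and -0.37, whereas Mrpl1 was higher in each, by 0.10, 0.26 and 0.14. Without litter 2, 39 members were lower and 0 higher at an unadjusted p under 0.05 (all genes 8.99% and 10.8%), with a median of -0.23 (all genes 0.019) and 0 members past an adjusted p of 0.05. With the level of other short genes as a covariate in place of the surrogate variables, 0 were lower and 0 higher (all genes 1.04% and 1.39%), and the median was 0.0040. The mean log2 level of short genes had a median of 1.79 in WT and 1.72 in Mbd5+/GT striatum. Without the 2 libraries low in striatal markers, both of WT mice, 12 members were lower and 0 higher (all genes 3.84% and 1.93%). Without the 6 striatum libraries higher in cortical markers, 8 were lower and 0 higher (all genes 2.58% and 1.84%), with a median of -0.077. In cortex litter 2 stood apart in the other direction, with 72 members lower and a median of -0.16, against 0.022 and 0.016 in litters 1 and 3. In cerebellum 64 members were lower in litter 2, with a median of -0.091, against 46 and 44 with medians of -0.012 and -0.019 in litters 1 and 3. The WT side of litter 2 was the same single mouse in all 3 regions.

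The S18 relatives showed no call in any region. Mrps18a differed between Mbd5+/GT and WT mice by -0.030 ± 0.035 (cortex), -0.032 ± 0.052 (striatum) and -0.0034 ± 0.044 (cerebellum) (SE, edgeR adjusted p = 0.88, 0.93 and 1.00). Mrps18b differed by 0.084 ± 0.057, -0.0036 ± 0.071 and 0.044 ± 0.055 in the same order, and Mrps18c by -0.0093 ± 0.11, -0.0036 ± 0.079 and 0.028 ± 0.083.

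The interaction of genotype and region was tested in the fit of all libraries, which held no surrogate variables. Its differences of effects are therefore not those between the fitted effects of single regions given above. Of the 77 members, 0 had an unadjusted p under 0.05 for cortex against striatum (all genes 4.22%), cortex against cerebellum (all genes 1.11%) or striatum against cerebellum (all genes 2.68%), by edgeR. The median difference of the effects was 0.12 for cortex minus striatum, -0.044 for cortex minus cerebellum and -0.16 for striatum minus cerebellum. With the mouse as a replicate block, 1, 0 and 3 members had an unadjusted p under 0.05 (all genes 3.93%, 1% and 2.64%) and 0 an adjusted p under 0.05. The members with the lowest p were Mrps11 and Mrps7 for cortex minus striatum (0.29 ± 0.16 and 0.27 ± 0.16, SE), Mrpl19 and Mrps17 for cortex minus cerebellum (-0.13 ± 0.093 and -0.097 ± 0.080) and Mrpl21 and Mrpl24 for striatum minus cerebellum (-0.28 ± 0.14 and -0.25 ± 0.13), with adjusted p of 0.99 or more in each case. Without litter 2, 18 members had an unadjusted p under 0.05 for cortex minus striatum (all genes 6.79%) and 18 for striatum minus cerebellum (all genes 4.42%). Without the 8 libraries higher in the markers of another region, the median for cortex minus striatum turned to -0.020 and that for striatum minus cerebellum was -0.039, with 0 and 1 members at an unadjusted p under 0.05 (all genes 2.25% and 1.64%).

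Other genes of mitochondrial gene expression were read from the same fits. Over 5 lists of 62 genes, for mitoribosomal proteins without an Mrp name, assembly and rRNA modification, translation factors, mitochondrial aminoacyl-tRNA synthetases and mitochondrial transcription, 0 had an adjusted p under 0.05 in any region. At an unadjusted p under 0.05, 0 of 62 changed in cerebellum (all genes 0.964% higher and 1.78% lower). In cortex 1 of 62 was higher (all genes 3.97%) and in striatum 1 of 62 was lower (all genes 3.2%). These were Aars2, the mitochondrial alanyl-tRNA synthetase, at 35.6 ± 4.28 CPM in Mbd5+/GT and 32.5 ± 4.91 CPM in WT cortex (SD), a difference of 0.094 ± 0.036 (SE, edgeR adjusted p = 0.48), and Mtif3, a mitochondrial initiation factor, at 17.9 ± 2.28 and 20.0 ± 2.07 CPM in striatum, a difference of -0.13 ± 0.058 (adjusted p = 0.64). The 20 assembly genes had a median of -0.036 in striatum with 15 below 0, the 13 translation factors of -0.017 with 9 below 0, and the 17 synthetases of -0.0075 with 10 below 0. The 5 mitoribosomal proteins without an Mrp name, among them Dap3 and Ptcd3, had a median of -0.051 with 3 below 0, and the 7 transcription genes of 0.0033.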

How the data were processed

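The deposited table held raw read counts per gene, which the authors made by aligning reads to GRCm38 with STAR 2.4.2 (default settings) and its gene counter after FastQC 0.10.1. Poly-A RNA was sequenced, and the strand setting is not given in the sources used here. Symbols, lengths and overlaps came from GENCODE release M21, which matched 46574 of 47069 genes, and the 92 spike-ins entered neither library sizes nor tests. Genotype effects were fitted per region with edgeR 4.0.16 (quasi-likelihood, robust, TMM) in R 4.3.3 on genes whose count passed 4 in 8 or more libraries, with 4 surrogate variables in cortex, 4 in striatum and 2 in cerebellum (sva 3.50.0). Region contrasts and interactions came from 1 fit of 54 libraries in 6 groups, without surrogate variables. P-values were Benjamini-Hochberg adjusted over all genes tested. CPM used TMM factors, within a region for genotype values and over all libraries for values per kilobase, and exact permutation tests used log2(CPM + 0.1). Depth was 25295973 to 49027399 counts per library, and its part in the precision of the 77 members tested was not tested. For a gene at 0, 3 counts is the limit a library allows. Each mouse gave 1 library per region, so the mice are the replicates.

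Named were, per region and direction, the 4 members of lowest p among those under 0.05, the 2 of lowest p per interaction, the 4 of greatest difference per direction in each WT contrast, the 3 highest and 3 lowest levels, and the S18 relatives; other members listed by name were added because their count was given. The members, lists and tests were chosen with earlier results of these data known. Same-mouse libraries deviated together (median r of 0.175, 0.0928 and 0.0653 for cerebellum with cortex, cortex with striatum and cerebellum with striatum, against -0.0036, -0.013 and -0.0045 for other mice), and the pairing comes from the mouse given by the labels. The fits were run on simulated counts with known changes, and the outcome is not given here. Those counts held no litter effect and no variation shared between genes, so they cannot show how the fits handle either. Alternatives used DESeq2 1.42.0, other covariates, no filter and fewer libraries. Some markers of the region and oligodendrocyte lists are not reported here.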

Additional observations from a re-analysis of the deposited data

Results flagged for a closer look

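Of 156 groups of 8 or 10 libraries checked for a single far library, 5 were marked, and chance alone marks about 1 in 20. Mrpl23 in the Mbd5+/GT striatum reached 18.9 CPM in 1 library, with the next at 13.5 CPM. Mrpl19 in the Mbd5+/GT cerebellum reached 35.6 CPM in 1 library, with the next at 32.8 CPM. Mrpl53 was marked in 3 groups where 1 library held a single read, at 0.0325 CPM in Mbd5+/GT striatum, 0.0295 CPM in Mbd5+/GT cerebellum and 0.0358 CPM in WT cerebellum.

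Rows of the table that the name rule leaves out also held reads. The pseudogenes Mrps36-ps1, Mrpl23-ps1 and Mrpl48-ps reached 14, 20 and 14 counts in their highest library. Near-identical copies can share reads with their parent genes, so these counts are uncertain.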

How the results depend on the processing

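Recomputed under the alternatives, 209 counts of called members stayed within 1.5 times the count reported and 39 did not; the cause was not tested. In striatum the lower members at an unadjusted p under 0.05 numbered 5 without surrogate variables, 19 with litter and sex, 6 with 1 surrogate variable fewer, 3 with no filter, 39 without litter 2 and 0 with the level of short genes, and higher members numbered 0 without surrogate variables, with litter and sex, without litter 2 and with the level of short genes. They were also 0 without the libraries labelled as repeats, without those low in region markers and without those higher in the markers of another region. Without the last, 1 member was lower in cortex and 1 passed for striatum minus cerebellum. In cerebellum 1 member was higher with the level of short genes and without the low-marker libraries. Between WT regions, cerebellum was below cortex for 1 member with no filter, in Mbd5+/GT mice, without litter 2, with the level of short genes and without the low-marker libraries, and above it for 54 with the level of short genes. Cerebellum against striatum gave 16 higher and 13 lower in Mbd5+/GT mice, 6 higher without litter 2, and 51 higher and 1 lower with the level of short genes. Cortex against striatum gave 38 lower in Mbd5+/GT mice, 0 lower and 4 higher with the level of short genes, and 0 higher with no filter, in Mbd5+/GT mice or without litter 2. With the mouse as a replicate block it gave 2 higher, and the interactions gave 1 (cortex minus striatum) and 3 (striatum minus cerebellum). Both gave 18 without litter 2. The block moved no other count by over 1.5 times.

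Of the members named, 39 values turned their sign under the alternative fits, all but that of Mrpl27 for the S18 relatives. Differences within single litters were not part of this count. In the striatum of litter 2, 75 of 77 members were higher in Mbd5+/GT mice, Mrpl12 and Mrps24 among them. With the level of short genes, cerebellum minus striatum became 0.058 for Mrpl27, 0.053 for Mrps18a, 0.051 for Mrps18b and 0.17 for Mrps18c, and cortex minus striatum 0.010 for Mrps18a and 0.0069 for Mrps18b. Cerebellum minus cortex turned to 0.043 (level of short genes) and 0.017 (Mbd5+/GT mice) for Mrps18a, and for Mrps18b to -0.0019 (replicate block), -0.0077 (DESeq2 size factors), -0.032 (Mbd5+/GT mice), -0.027 (without litter 2) and -0.034 (without libraries higher in markers of another region). The striatal genotype effect of Mrps18a, Mrps18b and Mrps18c turned to 0.0019, 0.019 and 0.019 with 1 surrogate variable fewer, 0.0034, 0.012 and 0.030 with no filter and 0.061, 0.062 and 0.075 with the level of short genes, and that of Mrps18c to 0.022 without repeats. In cerebellum Mrps18a turned to 0.050 without surrogate variables, 0.052 with 1 fewer, 0.0099 without litter 2, 0.020 with the level of short genes and 0.030 without the low-marker libraries, and Mrps18c to -0.022 with litter and sex and -0.035 without litter 2. The interaction of cortex minus striatum turned to -0.087 (Mrps18a) and -0.15 (Mrps18c) with the level of short genes and to -0.016 (Mrps18c) without the low-marker libraries, and striatum minus cerebellum to 0.0049 and 0.015 with the level of short genes. Without libraries higher in markers of another region, the interactions turned to -0.10 (Mrps18a) and -0.20 (Mrps18c) for cortex minus striatum, -0.00098 (Mrps18b) for cortex minus cerebellum and 0.0023 (Mrps18a) for striatum minus cerebellum.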
